A study of Homo sapiens with 12 samples.

Results

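Mino is an established human cell line from mantle cell lymphoma, a mature B-cell cancer that is driven by cyclin D1. In the experiment described here Mino cells were given compound E, an inhibitor of gamma-secretase, at 1 µM, or DMSO vehicle at 0.1% (mock), and gene expression was read on 3′ expression arrays with 2 arrays per group. The 4 Mino arrays were taken from a series of 12, in which 3 mantle cell lymphoma lines were each given the inhibitor or the vehicle for 24 h. Mino was grown in RPMI with 15% fetal bovine serum, and the other lines, Rec-1 and SP-49, with 10%. Their 8 arrays were used here for 1 purpose, to help estimate how far replicate arrays differ. The labels name no genotype, and all results apply to 1 cell line at 1 dose and 1 time. They do not say that the replicates came from separate cultures. Every p-value and interval therefore measures the spread between these arrays, which may be technical.

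Each gene was represented by the probe set that names it alone and has the highest mean over the 12 arrays, which gave 19775 genes. Levels are log2 intensities, and a change is the inhibitor mean minus the mock mean on that scale, so that 1 is a doubling. A gene was called expressed where its mean over the 4 Mino arrays was at least 4, which held for 7297 genes. The mean over both groups makes no use of the difference between them. The cells are measured in bulk, so fewer cells of a kind and less RNA per cell cannot be told apart.

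Notch receptors are cell-surface proteins that are cut after a neighbouring cell's ligand binds them. An ADAM protease removes the outer part, and gamma-secretase then cuts within the membrane and frees the intracellular domain, which enters the nucleus and turns RBPJ with its MAML coactivators into an activator of genes such as those of the HES and HEY repressors. A gamma-secretase inhibitor blocks the last cut, and with it the signal from all Notch receptors, but the same enzyme also cuts many other membrane proteins. In a line whose transcription does not depend on Notch, the arrays therefore bound what else the compound does to mRNA levels. The labels do not state whether Mino depends on Notch.

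The arrays carried the B-cell and mantle cell lymphoma transcripts that the labels call for. All 7 measured B-cell markers were expressed, among them MS4A1, which encodes CD20, at 10.08 and 9.92 on the mock arrays and 10.09 and 9.95 with inhibitor, and CD79A, a chain of the B-cell receptor, at 7.94 and 7.95 against 7.82 and 7.86. SOX11, the transcription factor that marks most mantle cell lymphomas, lay between 7.40 and 7.53 on all 4 arrays. None of 13 myeloid, 12 stromal and endothelial or 7 red-cell markers was expressed, and the mean myeloid marker level was 1.62 and 1.63 on the mock arrays and 1.60 and 1.64 with inhibitor. Among 12 T-cell markers LCK and ZAP70 were expressed, while CD3E, a core chain of the T-cell receptor, stayed between 1.76 and 1.81. Of 10 NK-cell and 10 epithelial markers, PRF1 and EPCAM respectively were expressed. The 4 arrays correlated with one another at 0.9903 to 0.9921 across all 54675 probe sets. RNA quality moved slightly with treatment: the 3′ minus 5′ difference of the ACTB control probe sets was 1.73 and 1.79 on the mock arrays and 2.0 and 1.94 with inhibitor, and that of GAPDH was 0.26 and 0.25 against 0.31 and 0.39. Its part in the results was not tested.

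Compound E left the measured mRNA of Mino close to that of mock-treated cells. No gene of 19775 passed limma's test at an adjusted p under 0.05 (0.0% of all genes and 0.0% of the 7297 expressed genes), and the smallest adjusted p was 0.355. At an unadjusted p under 0.05 limma's test called 969 genes, or 4.9% of those tested, of which 497 (2.51%) were higher and 472 (2.39%) lower with inhibitor. Among expressed genes the unadjusted test called 266, or 3.65%, with 188 (2.58%) higher and 78 (1.07%) lower. The higher share of these expressed calls, 70.7%, depended on the scaling: it was 80.8% (232 higher, 55 lower) after centring each array on its median, and 61.0% (194 higher, 124 lower) after a further quantile normalization. Averaging all probe sets of a gene gave 56.9% (111 higher, 84 lower). The counts also moved with single arrays: without inhibitor replicate 1 there were 107 higher and 69 lower, and without mock replicate 1 there were 257 higher and 133 lower. The median change was -0.004 over all genes and 0.012 over expressed genes. Normalization between arrays removes any shift common to all genes, so such a shift is outside what these values show.

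The spread of the differences was close to what the replicates alone would give. Over expressed genes the SD of the inhibitor-minus-mock change was 0.168, and the replicate differences within the groups predict 0.162. The SD of the difference between the 2 mock arrays was 0.255, and between the 2 inhibitor arrays 0.201. Both inhibitor arrays lay above both mock arrays in 16.2% of all genes and 18.3% of expressed genes, and below them in 17.0% and 15.5%. With 2 arrays against 2, an exact permutation test of a single gene cannot go below p = 0.333.

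**Figure D1:**
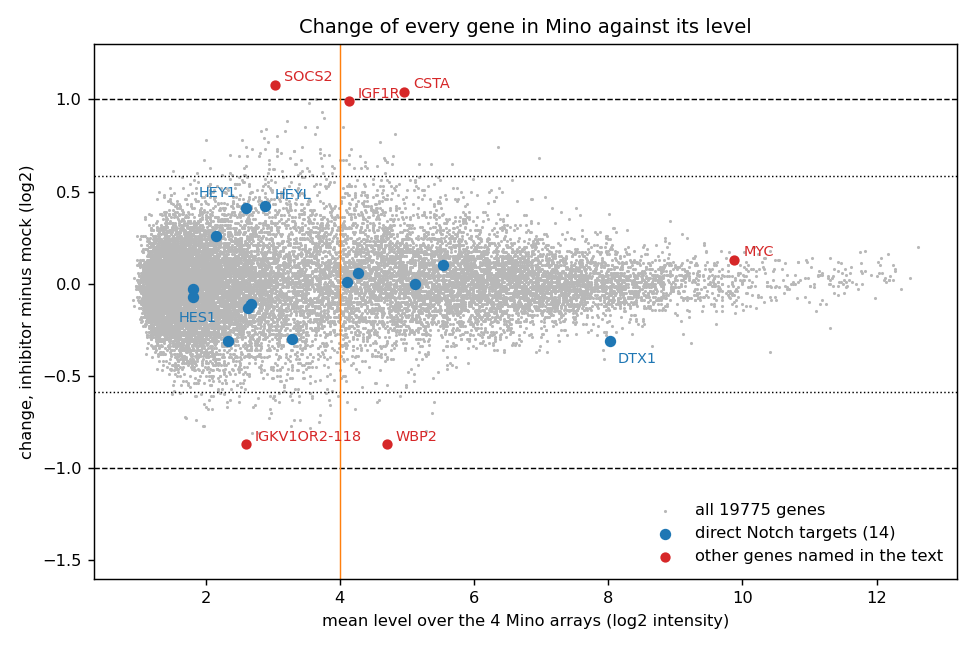
Change of each of 19775 genes in Mino (inhibitor minus mock, log2) against its mean level over the 4 Mino arrays (log2 intensity). Dashed lines mark a 2-fold and dotted lines a 1.5-fold change, the vertical line marks the level of 4 from which a gene was called expressed, and the cloud narrows to the right, with DTX1 at -0.31 and MYC at 0.13.

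The intervals of the changes bound, gene by gene, how far the chosen probe set can have moved between these arrays. They are not adjusted for the number of genes, and other probe sets of a gene can differ. The 95% interval of the change lay wholly within 2-fold, in either direction, for 7202 of 7297 expressed genes (98.7%), and wholly within 1.5-fold, or 0.585 on the log2 scale, for 5547 (76.0%). The median expressed gene was bounded to a change of at most 0.45, and 5% of expressed genes had intervals reaching beyond 0.84. Formal equivalence, with 2 one-sided tests against a 2-fold change and adjustment over all genes, was reached by 7245 expressed genes (99.3%). Of the 95 expressed genes not held within 2-fold, 75 had intervals reaching above a doubling and 20 below a halving. The measured change was 1.5-fold or more for 39 expressed genes and 2-fold or more for 1.

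The bound was tightest for the genes with strong signals. Among the 996 genes with a mean of 8 or more, all intervals lay within 2-fold and 979 (98.3%) within 1.5-fold, and the most extreme changes measured were 0.38 and -0.37. Between 6 and 8, 99.7% of 2725 genes were held within 2-fold and 88.7% within 1.5-fold. Between 4 and 6 these shares were 97.6% and 60.1% of 3576 genes. Below 4 the intervals say less about mRNA, since array signals near background compress differences.

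**Figure D2:**
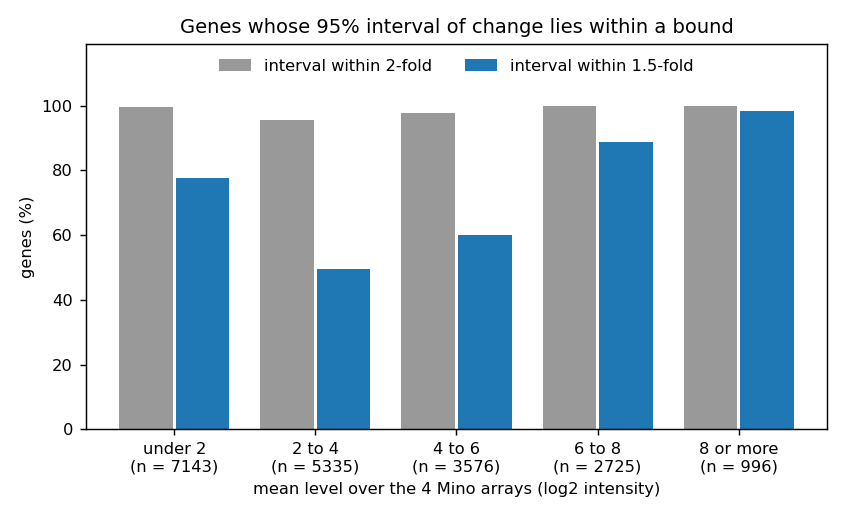
Share of genes (%) whose 95% interval of the change lies within 2-fold (grey) or 1.5-fold (blue), by mean level over the 4 Mino arrays (log2 intensity), with the number of genes in each bin under the axis. Among expressed genes the 1.5-fold share climbs from 60.1% between 4 and 6 to 98.3% at 8 or more.

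The enzyme that compound E inhibits and the proteases that act before it were expressed, and no member passed an unadjusted p under 0.05 in limma's test. Of 7 gamma-secretase subunits and ADAM sheddases analysed here 5 were expressed, and all 5 were held within 1.5-fold. APH1A, a scaffold subunit, was at 6.5 and 6.46 on the mock arrays and 6.69 and 6.71 with inhibitor, a change of 0.22 with a 95% interval of -0.07 to 0.52. Its inhibitor arrays both lay above its mock arrays, as 18.3% of expressed genes did. The 2 other APH1A probe sets changed by -0.32 and 0.12. ADAM10, the main sheddase of ligand-bound Notch receptors, was at 7.85 and 7.58 against 7.95 and 7.72 (change 0.12, interval -0.21 to 0.45). The related protease ADAM17 was at 7.17 and 7.12 against 7.13 and 7.14 (change -0.02, interval -0.28 to 0.25). NCSTN, which encodes the substrate-binding subunit nicastrin, changed by 0.04 (-0.42 to 0.50), and the scaffold APH1B by -0.05 (-0.44 to 0.35). PSEN2, a catalytic subunit, and PSENEN, which activates the complex, were below the level of 4.

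Mino expressed 3 Notch receptors, and none of their transcripts passed an unadjusted p under 0.05 in limma's test. NOTCH1 was at 4.82 and 4.89 in mock cells and 4.85 and 4.96 with inhibitor, a change of 0.05 (-0.20 to 0.31). NOTCH2 was at 7.0 and 7.18 against 7.11 and 7.19, a change of 0.06 (-0.23 to 0.34). NOTCH4 was at 4.61 and 4.51 against 4.75 and 4.61, a change of 0.12 (-0.22 to 0.46). The groups overlapped for NOTCH1 and NOTCH2 and met at 4.61 for NOTCH4, and all 3 intervals lay within 1.5-fold. NOTCH3 was below 4 on every array, as were the ligands DLL1, DLL3, DLL4 and JAG1 and the ligand-like DLK1. The ligand JAG2 was expressed, at 4.27 and 4.18 against 4.04 and 4.04, but its interval of -1.01 to 0.64 was not held within 2-fold. Its replicate SDs in Mino were only 0.06 and 0.0, so the width came mostly from the other lines' arrays. The other JAG2 probe set, with a mean of 3.96 in Mino, changed the opposite way, by 0.45. Of the 10 receptors and ligands, 1 had both inhibitor arrays above both mock arrays and 3 had both below (16.2% and 17.0% of all genes).

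Among the factors that carry, modify or end the Notch signal, 17 of 19 were measured and 9 expressed, all held within 2-fold and 7 within 1.5-fold. RBPJ, the DNA-binding partner of all Notch receptors, was at 7.70 and 7.56 in mock cells and 7.61 and 7.55 with inhibitor (change -0.05, interval -0.33 to 0.23). The fringe glycosyltransferases tune which ligands a receptor answers to. MFNG was at 7.92 and 8.15 against 7.75 and 7.98 (change -0.17), and LFNG at 6.12 and 5.38 against 6.20 and 6.02 (change 0.36, interval -0.13 to 0.85). The LFNG mock arrays differed by more than the groups did. ITCH, a ubiquitin ligase for Notch, changed by 0.05 (-0.36 to 0.46). No member passed an unadjusted p under 0.05 in limma's test, and the median change was 0.03, beside -0.00 over all genes.

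The direct Notch targets were a mixed set in which most members were near background. Of the 14 targets 5 were expressed, and all 5 were held within 1.5-fold. The median change of the 14 was -0.01, beside -0.00 over all genes. In 3 of them both inhibitor arrays lay above both mock arrays and in 3 below (16.2% and 17.0% of all genes). At an unadjusted p under 0.05 limma's test called 1 higher (HEYL) and 1 lower (DTX1), where 4.9% of all genes were called.

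DTX1, which encodes the ubiquitin ligase Deltex-1 and is induced by Notch in lymphocytes, was the expressed target with a change past the unadjusted threshold. Its level was 8.23 and 8.13 on the mock arrays and 7.92 and 7.83 with inhibitor, so both treated arrays were lower than both mock arrays. The change was -0.31 (95% interval -0.58 to -0.03), with limma's unadjusted p at 0.0303 and its adjusted p at 0.969. Leaving out any 1 Mino array gave -0.35 to -0.26. The interval places any fall of DTX1 short of 1.5-fold.

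The other expressed targets lay closer to 0. NRARP, a feedback inhibitor of the Notch complex, was at 4.13 and 4.36 in mock cells and 4.13 and 4.47 with inhibitor (change 0.06, interval -0.26 to 0.37). HES6 was at 4.94 and 5.30 against 5.09 and 5.16 (change 0.00, interval -0.40 to 0.41). CCND3, which encodes cyclin D3, was at 5.45 and 5.52 against 5.57 and 5.59 (change 0.10, interval -0.19 to 0.38). PTCRA, the pre-T-cell receptor alpha chain, changed by 0.01 (-0.44 to 0.46). Their replicate arrays differed by as much as their groups, except for CCND3, whose treated arrays lay just above the mock arrays.

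The classical reporters of Notch activity had little signal in Mino with or without inhibitor. HES1, the best-known target, was at 1.69 and 2.0 on the mock arrays and 1.82 and 1.73 with inhibitor (change -0.07, interval -0.50 to 0.36). HES4 was at 2.24 and 1.80 against 2.55 and 2.01 (change 0.26, interval -0.20 to 0.72). HEY1 was at 2.50 and 2.28 against 2.89 and 2.73 (change 0.41, interval -0.02 to 0.85). HEYL was at 2.62 and 2.75 against 3.00 and 3.20, a change of 0.42 (0.02 to 0.81) with limma's unadjusted p at 0.0419 and its adjusted p at 0.992, but the other HEYL probe set changed by -0.13. HES1 and HES4 overlapped between the groups, and HEY1 and HEYL were higher on both treated arrays. At these levels a transcript has little room to be lowered on the array, so these near-background genes set no bound on a loss of Notch signal.

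The promoters of HES1 and HES4 are shown because they carry matches to the RBPJ core motif, next to genes that were near background on all 4 arrays. The sequences are the 110 bases just before the annotated RefSeq start, read on the gene's strand from GRCh38.p14, with each match to the core TGGGAA in capitals; both strands were searched. HES1 lies on the plus strand at chr3:194136038-194136147, with matches beginning 84 and 70 bases before the start, and HES4 on the minus strand at chr1:1000098-1000207, with a match beginning 76 bases before the start.
HES1: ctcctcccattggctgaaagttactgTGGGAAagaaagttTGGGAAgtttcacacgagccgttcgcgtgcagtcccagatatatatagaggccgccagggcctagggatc
HES4: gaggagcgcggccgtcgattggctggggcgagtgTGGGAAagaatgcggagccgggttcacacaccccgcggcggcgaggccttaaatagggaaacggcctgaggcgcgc
In the 250 bases before the start, the core was found in 5 of the 12 direct targets searched (HES1, HES4, HES5, HEY2 and HEYL). HEY1 and DTX1 were not searched, so these 12 are not the whole list of targets. Of all promoters, 7321 of 35116 (20.8%) held the core. At least 2 matches, as HES1, HES5 and HEYL have, were found in 1017 promoters (2.9%). A match describes the letters in this window and is not evidence of binding.

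**Figure D3:**
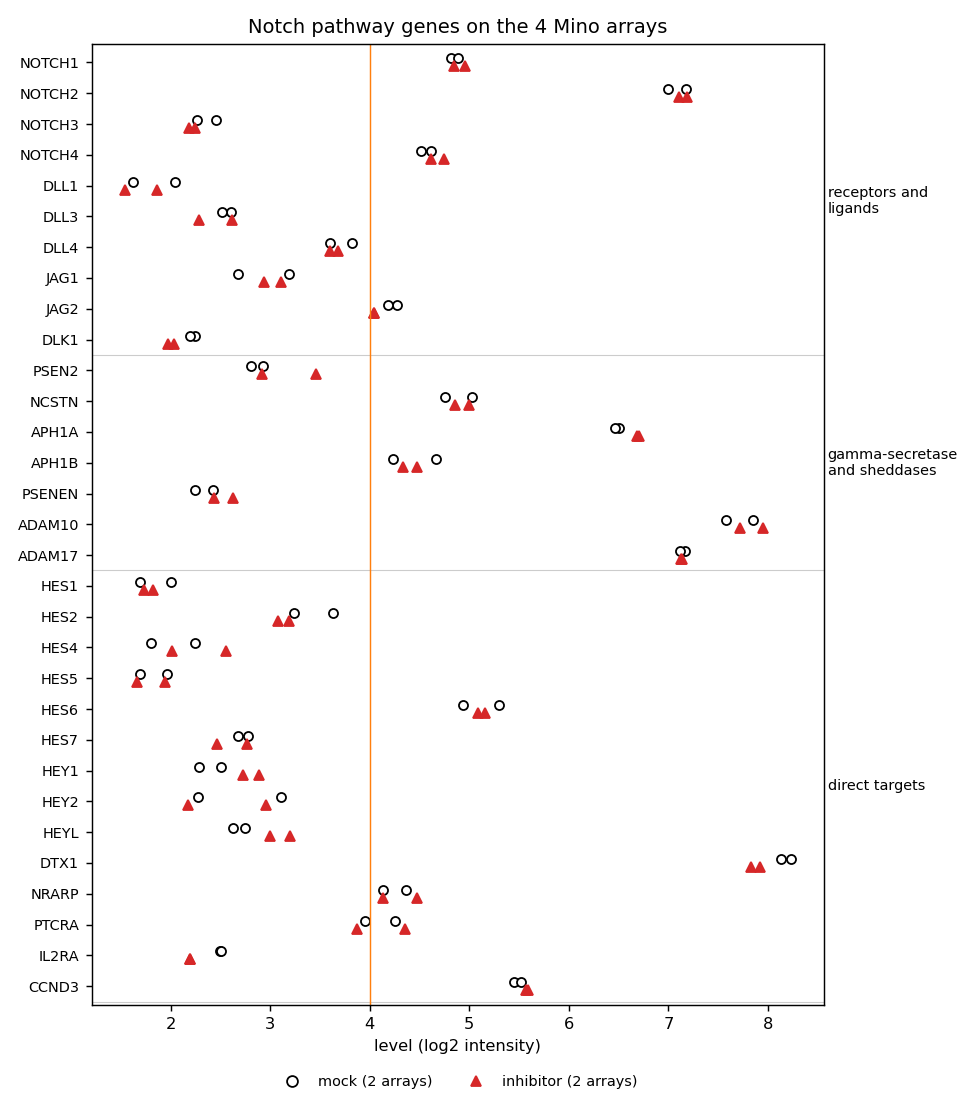
Level (log2 intensity) of the Notch receptors and ligands, the gamma-secretase subunits and sheddases and the direct Notch targets on each Mino array. Open circles are the 2 mock arrays, red triangles the 2 inhibitor arrays, and the vertical line marks 4. The DTX1 triangles (7.92 and 7.83) lie left of its circles (8.23 and 8.13), while HES1 stays between 1.69 and 2.0.

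Genes tied to Notch in B cells had small changes in both directions. All 16 were measured, 8 were expressed, and 8 of these were held within 2-fold and 7 within 1.5-fold. None passed an unadjusted p under 0.05 in limma's test, and the median change was -0.05. In 3 members both treated arrays lay above both mock arrays and in 3 below (16.2% and 17.0% of all genes).

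MYC, the growth regulator that Notch induces in many lymphoid cells, was at 9.92 and 9.72 in mock cells and 9.86 and 10.04 with inhibitor. The groups overlapped, and the change of 0.13 had a 95% interval of -0.25 to 0.52, which places a fall of MYC below 1.5-fold. Among the Src-family kinases that act at the B-cell receptor the groups overlapped for FYN, at 5.13 and 5.38 against 5.28 and 5.10 (change -0.07), and for LYN (change -0.08). BLK was at 4.33 and 4.21 against 4.45 and 4.48, both treated arrays higher, with a change of 0.19 (-0.11 to 0.50). SH2B2, a signalling adaptor, was at 6.29 and 6.2 against 6.5 and 6.43 (change 0.22, interval -0.06 to 0.51). HK2, the hexokinase that starts glycolysis, was at 6.13 and 6.09 against 6.14 and 6.27 (change 0.10, interval -0.23 to 0.42). NFATC1, a calcium-driven transcription factor, was at 7.29 and 7.48 against 7.15 and 7.07, and its interval of -0.63 to 0.08 reached past 1.5-fold. CR2, which encodes complement receptor CD21, was near background at 1.42 and 1.29 against 1.14 and 1.15, as were FCRL4 and CD300A. FCRL5, an Fc receptor-like protein of B cells, was at 6.65 and 6.18 against 6.41 and 6.23 (change -0.10).

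Other membrane proteins cut by gamma-secretase include the amyloid precursor protein, and those expressed in Mino, apart from IGF1R, had changes of -0.21 to -0.05. Of 23 measured substrates 6 were expressed, of which 5 were held within 2-fold and 3 within 1.5-fold. APP was at 7.61 and 7.80 in mock cells and 7.46 and 7.67 with inhibitor (change -0.14, interval -0.48 to 0.19), and its relative APLP2 changed by -0.19. CD44, an adhesion receptor for hyaluronan, was at 7.91 and 8.09 against 7.92 and 7.98 (change -0.05, interval -0.34 to 0.25). TNFRSF17, which encodes the plasma-cell receptor BCMA, changed by -0.05 with an interval of -0.75 to 0.66.

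IGF1R, the insulin-like growth factor receptor, stood apart from the other substrates. Its level was 3.45 and 3.82 on the mock arrays and 4.71 and 4.55 with inhibitor, a change of 0.99 (0.62 to 1.37). Limma's unadjusted p was 0.000116 and its adjusted p 0.355. The 4 other IGF1R probe sets changed by -0.08 to 0.54, and leaving out 1 Mino array gave 0.81 to 1.18. Taken as the mean of its probe sets, IGF1R changed by 0.35. Besides IGF1R, limma's unadjusted test called 1 substrate, JAM3 (2.37 and 3.04 against 3.28 and 3.61), which was not expressed; it was named after its values were seen, as were the other list members below that are named only for passing the unadjusted threshold.

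The MYC programme was close to mock levels. Of 12 measured genes of the MYC and MAX network 8 were expressed, all within 2-fold, with MYC's partner MAX at 7.58 and 7.64 against 7.42 and 7.51 (change -0.14) and the antagonist MXI1 at 7.25 and 7.32 against 7.48 and 7.35. All 28 expressed nucleolar ribosome-biogenesis genes, a group MYC drives, were held within 2-fold and 25 within 1.5-fold. NPM1, the main nucleolar chaperone, was at 11.01 and 10.95 against 11.12 and 11.01 (change 0.09), and the RNA helicase DDX21 at 9.91 and 9.90 against 9.87 and 9.87 (change -0.04). NCL and FBL, which process ribosomal RNA, changed by 0.14 and 0.00. Among 27 expressed metabolic genes linked to MYC, TYMS (thymidylate synthase) changed by -0.02, LDHA (lactate dehydrogenase) by -0.00 and ODC1, which makes polyamines, by 0.07. No member of these 3 lists passed an unadjusted p under 0.05 in limma's test.

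B-cell receptor signalling components were close to mock levels, with a larger number of members on the lower side. Of 24 expressed members all were held within 2-fold and 21 within 1.5-fold, and the median change of the 25 measured was -0.05, beside -0.00 over all genes. Both treated arrays lay below both mock arrays in 11 of 25 members and above in 2, where the shares over all genes are 17.0% and 16.2%. BLNK, the adaptor that links the receptor to its kinases, was at 8.92 and 9.01 in mock cells and 8.83 and 8.92 with inhibitor (change -0.09). CD79B, a signalling chain of the receptor, was at 8.17 and 8.38 against 8.21 and 8.30 (change -0.02), and the co-receptor component CD81 changed by -0.05. VAV1, a guanine nucleotide exchange factor, was at 5.53 and 5.04 against 4.88 and 4.77, a change of -0.46 (-0.84 to -0.08) with limma's unadjusted p at 0.021 and its adjusted p at 0.937. RASGRP3, not expressed, was called higher at an unadjusted p of 0.0411 in the same limma test.

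Most B-cell identity genes and all measured markers of the lymphoma counted as expressed by their mean over the 4 Mino arrays. Of 18 expressed identity genes 17 were held within 2-fold and 15 within 1.5-fold. CD24 changed by 0.00, the B-cell coactivator POU2AF1 by -0.01 and the transcription factor IKZF1 by -0.13. IRF8 was at 5.45 and 5.62 against 6.06 and 5.73 and passed limma's unadjusted threshold, as did BACH2, which was not expressed. CD38, an ectoenzyme of activated B cells, was at 5.51 and 4.58 against 5.53 and 5.61, so that 1 low mock array made up most of its change of 0.53 (-0.02 to 1.08).

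All 9 measured mantle cell lymphoma markers were expressed and held within 2-fold, and 6 within 1.5-fold. The widest bound was that of CD5, at 4.82 and 3.92 in mock cells and 3.83 and 4.22 with inhibitor (interval -0.99 to 0.3). CD5 was thus below the level of 4 on an array of each group. CCND1, which encodes cyclin D1, was at 8.51 and 8.54 in mock cells and 8.38 and 8.27 with inhibitor. Both treated arrays were below both mock arrays, and the change was -0.20 (-0.45 to 0.05). The other CCND1 probe set, with a mean of 9.24 in Mino, changed by -0.04. CDK4, its kinase partner, changed by -0.06 (-0.32 to 0.21), and SOX11 by 0.07 (-0.22 to 0.35). NSD2, a histone methyltransferase gene mutated in some mantle cell lymphomas, was at 6.54 and 6.65 against 6.85 and 7.09, a change of 0.37 with limma's unadjusted p at 0.0284 and its adjusted p at 0.967. NSD2's 5 other probe sets changed by -0.35 to 0.05.

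Markers of proliferation were close to mock levels. All 24 measured DNA replication and G1/S genes were expressed and held within 2-fold, 22 of them within 1.5-fold, with a median change of -0.02. PCNA, the sliding clamp of DNA polymerase, was at 10.59 and 10.69 against 10.59 and 10.60, and RRM2, a ribonucleotide reductase subunit, at 9.61 and 9.72 against 9.63 and 9.65. All 31 expressed mitotic genes were held within 2-fold and 27 within 1.5-fold. TOP2A, which untangles chromosomes, was at 9.15 and 9.12 against 9.22 and 9.06, and CDK1, the mitotic kinase, at 8.89 and 8.86 against 8.98 and 8.98. Limma's unadjusted test called 1 of these genes, the kinesin CENPE (change -0.31, unadjusted p 0.0431).

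Genes that answer to damage and death also had small changes. All 7 expressed BCL2-family genes were held within 2-fold and 6 within 1.5-fold. BCL2 itself changed by -0.03 (-0.35 to 0.29) and the short-lived survival factor MCL1 by 0.19 (-0.11 to 0.49). PMAIP1, the death-promoting NOXA, was at 9.31 and 8.62 against 9.26 and 9.21. Of 14 expressed p53 targets all were held within 2-fold and 11 within 1.5-fold, with CDKN1A, the p21 cell-cycle inhibitor, at 7.13 and 6.89 against 7.09 and 7.13 (change 0.10, interval -0.34 to 0.53) and CCNG1 at 9.10 and 9.10 against 9.16 and 9.19. No member of either list passed an unadjusted p under 0.05 in limma's test.

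Stress pathways that small molecules often set off had list medians between -0.06 and 0.07. In the ATF4 amino-acid stress response ATF4 was at 9.11 and 9.07 in mock cells and 9.07 and 9.09 with inhibitor, and its target ASNS, asparagine synthetase, changed by -0.02 (-0.37 to 0.32). The 8 expressed members were all within 2-fold, and CHAC1, not expressed, was called lower by limma's unadjusted test (2.58 and 3.05 against 2.11 and 2.39). In the endoplasmic reticulum, 19 expressed chaperone and unfolded-protein genes were all within 2-fold, and PDIA6, a disulphide isomerase, changed by 0.05. XBP1, the transcription factor of that response, was at 5.46 and 4.81 against 5.64 and 5.72, a change of 0.54 (0.14 to 0.95) with limma's unadjusted p at 0.0132 and its adjusted p at 0.929. As with CD38, its second mock array was the low one.

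The cytosolic heat-shock genes were measured for 77.8% of the list, and all 13 expressed members were held within 2-fold. HSP90AA1 was at 11.44 and 11.33 against 11.46 and 11.45 (change 0.07). Of 12 expressed genes of the NRF2 and xenobiotic response, all were within 2-fold and 11 within 1.5-fold, with FTL, a ferritin chain, changed by 0.12 and TXNRD1, thioredoxin reductase, by -0.02. Limma's unadjusted test called 2 of 23 measured members higher, beside 2.51% of all genes. They were KEAP1, the sensor that restrains NRF2 (change 0.29), and ABCB1, a drug efflux pump that was not expressed (1.13 and 1.14 against 1.52 and 1.5).

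Of 24 measured lysosomal and autophagy genes 20 were expressed. All 20 were within 2-fold and 17 within 1.5-fold. LAMP1, a main lysosomal membrane protein, changed by 0.19 (-0.09 to 0.47), GABARAP by 0.06 and MAP1LC3B by 0.00. ATG7, which activates the autophagy conjugation system, was at 4.97 and 4.68 against 4.45 and 4.38, a change of -0.40 with limma's unadjusted p at 0.0314 and its adjusted p at 0.969. Its 3 other probe sets changed by -0.19 to 0.10. Cholesterol synthesis was measured for 73.9% of its list, with all 16 expressed genes within 2-fold, FDPS at 0.12 and SQLE at 0.02. STARD4, a cholesterol carrier, had a change of 0.41 and passed limma's unadjusted threshold.

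Signalling to the surroundings was also close to mock levels. All 14 expressed NF-kB targets were held within 1.5-fold, with NFKBIA, the pathway's own inhibitor, at 8.75 and 8.72 against 8.81 and 8.69. IRF4, a regulator of plasma-cell fate, was at 7.86 and 7.89 in mock cells and 7.60 and 7.65 with inhibitor, both treated arrays lower, with a change of -0.25 (-0.54 to 0.05). Limma's unadjusted test called 3 of 24 NF-kB genes higher, beside 2.51% of all genes. All of them were below the level of 4, namely TNF (2.26 and 3.28 against 3.66 and 3.64), NFKB2 and IL6. Of 7 expressed interferon-response genes all were within 2-fold, and MX1, an antiviral GTPase, changed by 0.14. IRF9, a subunit of the interferon-activated complex, was at 4.14 and 4.04 against 3.73 and 3.48, with a mean below 4, a change of -0.49 and limma's unadjusted p at 0.00237.

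Antigen presentation and migration genes were bounded in the same way. The 14 expressed MHC class II genes were within 2-fold and 11 within 1.5-fold. CD74, the invariant chain, was at 11.36 and 11.50 against 11.28 and 11.10 (change -0.24, interval -0.66 to 0.18), and HLA-DRA changed by -0.15. All 11 expressed chemokine-receptor and migration genes were within 2-fold. CXCR4, which keeps B cells in marrow and nodes, was at 9.01 and 9.20 against 9.01 and 8.85, and CCR7 changed by -0.01. Limma's unadjusted test called 3 of 19 higher, beside 2.51% of all genes. They were GPR183 and the integrin chains ITGB2 (6.4 and 5.83 against 6.5 and 6.77) and ITGB7 (3.79 and 4.09 against 4.25 and 4.39). GPR183, a receptor that guides B cells to the outer follicle, was not expressed (1.35 and 1.87 against 2.31 and 2.46). The 2 other ITGB2 probe sets changed by -0.11 and 0.05.

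Activation and differentiation genes included JUN and KLF2, both higher with inhibitor at the unadjusted threshold. Of 27 immediate-early and activation genes 9 were expressed, all within 2-fold and 6 within 1.5-fold. JUN, a subunit of AP-1, was at 4.85 and 4.90 in mock cells and 5.12 and 5.49 with inhibitor, a change of 0.43 (0.08 to 0.78) with limma's unadjusted p at 0.0203, and its 3 other probe sets changed by -0.16 to 0.11. KLF2, a quiescence and trafficking factor, was not among the expressed genes, since its mean over the 4 Mino arrays was below 4. It was at 3.73 and 3.45 against 4.25 and 4.02, a change of 0.55 with limma's unadjusted p at 0.0125. FOSB, not expressed, was called lower by the same test, while IER5 changed by 0.24 and JUND by -0.05. Of 11 expressed plasma-cell genes 9 were within 2-fold. JCHAIN, the joining chain of polymeric antibodies, changed by 0.10, and SDC1, which encodes CD138, had a change of -0.35 with an interval of -1.08 to 0.39. The 3 expressed germinal-centre genes, GNA13, EZH2 and ELL3, changed by 0.08, -0.03 and -0.02.

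Housekeeping machinery gave the narrowest bounds of any list here with more than 20 expressed members. All 23 expressed cytosolic ribosomal-protein genes were held within 1.5-fold, with changes from -0.05 to 0.17, as were all 28 proteasome genes, with changes from -0.22 to 0.11. RPS19 was at 12.27 and 12.22 against 12.28 and 12.35, and PSMA1 at 9.87 and 9.89 against 9.90 and 9.91. The hypoxia and glycolysis list had 21 expressed members, all within 2-fold. GAPDH was at 11.53 and 11.54 against 11.56 and 11.53, while EGLN1, an oxygen sensor of that list, was at 5.86 and 5.74 against 6.29 and 6.28 (change 0.48, limma's unadjusted p 0.0227). The 3 other EGLN1 probe sets changed by -0.20 to 0.07.

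**Figure D4:**
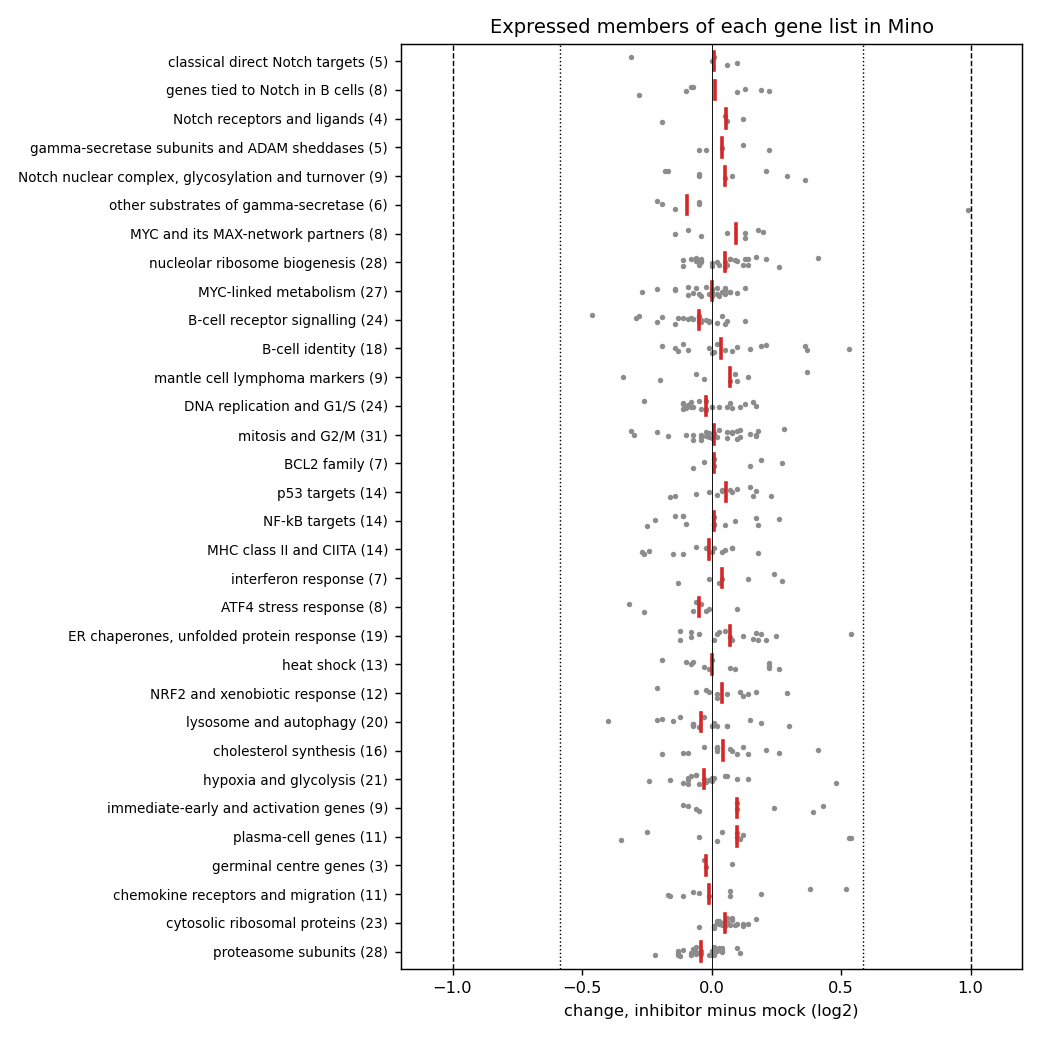
Change (inhibitor minus mock, log2) of the expressed members of each gene list in Mino; each grey point is a gene, the red bar is the median of the expressed members, and the number in brackets is how many were expressed. Dotted lines mark 1.5-fold and dashed lines 2-fold. The list medians lie close to 0, and IGF1R at 0.99 is the only point beyond 1.5-fold.

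Across all these lists, the expressed members whose intervals were not held within 2-fold were JAG2, IGF1R, CD38 and SDC1. Counts of list members past the unadjusted threshold are to be read beside the 4.9% of all genes that passed it (2.51% higher and 2.39% lower). No list member had an adjusted p under 0.05 in limma's test.

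The expressed genes that differed most between the groups were of mixed function. Among those whose treated arrays both lay on one side of the mock arrays, the 10 most higher had changes of 0.69 to 1.04 and the 10 most lower had changes of -0.87 to -0.56. CSTA, a cysteine protease inhibitor, was at 4.76 and 4.12 in mock cells and 5.67 and 5.29 with inhibitor, a change of 1.04 (0.57 to 1.51) with limma's adjusted p at 0.58. Leaving out 1 Mino array gave 0.72 to 1.36. CACNA1A, a calcium channel subunit, was at 4.40 and 4.43 against 5.34 and 5.12, but its 4 other probe sets changed by -0.12 to 0.20. ITPRIPL2 was at 6.29 and 5.67 against 6.73 and 6.71 (change 0.74), with 5 other probe sets at -0.36 to 0.39.

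TRIP6, a focal-adhesion adaptor, was at 4.33 and 4.09 against 4.99 and 4.97 (change 0.77), and NMB, the peptide neuromedin B, at 4.61 and 4.27 against 5.12 and 5.14 (change 0.69). FMOD (0.85), TAF1A (0.73), SLC2A13 (0.70) and STRN (0.69) completed the higher group with IGF1R. STRN's 9 other probe sets changed by -0.21 to 0.09, and the 4 others of SLC2A13 by -0.06 to 0.29. Averaged over all their probe sets, STRN changed by -0.01, ITPRIPL2 by 0.12, CACNA1A by 0.23 and SLC2A13 by 0.24. The mock means of IGF1R, FMOD, TAF1A, SLC2A13 and STRN were below 4, so these genes counted as expressed only through their inhibitor arrays.

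On the lower side WBP2, a coactivator that binds YAP, was at 5.06 and 5.21 in mock cells and 4.48 and 4.04 with inhibitor, a change of -0.87 (-1.39 to -0.36) with limma's adjusted p at 0.895. JAML, an adhesion molecule of leukocytes, was at 5.02 and 6.36 against 4.89 and 4.89. Its change of -0.80 rested on 1 mock array: without mock replicate 1 it was -1.48, and without mock replicate 2 it was -0.13. VSNL1 (-0.70), ZNF839 (-0.68), CENPT (-0.64), DHRS11 (-0.64), UBTF (-0.64), STS (-0.63), PASK (-0.61) and CSNK1G1 (-0.56) followed. The inhibitor means of ZNF839 (3.89) and CENPT (3.79) were below 4, so these genes counted as expressed only through their mock arrays. UBTF, which drives transcription of ribosomal RNA genes, was at 5.55 and 5.90 against 4.72 and 5.46, and its 4 other probe sets changed by -0.44 to -0.08. VSNL1's other probe set changed the opposite way, by 0.33, and the 2 others of PASK changed by -0.05 and 0.03.

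**Figure D5:**
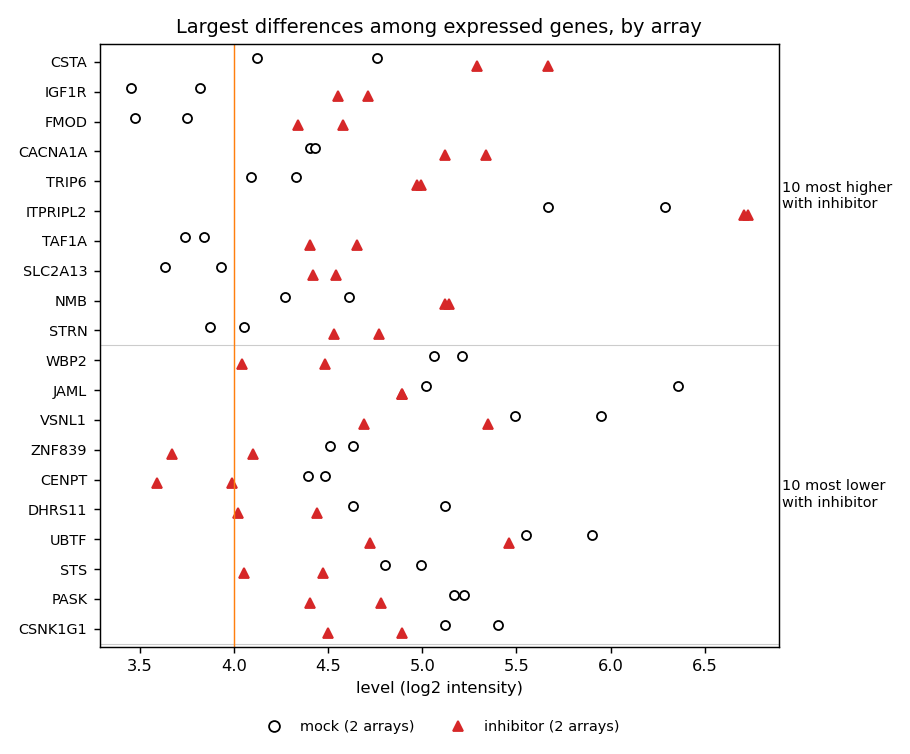
Level (log2 intensity) on each Mino array of the 10 expressed genes most higher and the 10 most lower with inhibitor, among genes whose groups do not overlap. Open circles are the 2 mock arrays, red triangles the 2 inhibitor arrays, and the vertical line marks 4. The JAML mock arrays lie far apart, at 5.02 and 6.36, and none of the 20 genes had an adjusted p under 0.05 in limma's test.

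The 5 smallest p-values all came with limma's adjusted p at 0.355, and 4 of the genes were below the expressed level. SOCS2, a feedback inhibitor of cytokine signalling, was at 2.46 and 2.52 in mock cells and 3.53 and 3.62 with inhibitor, a change of 1.08 (0.74 to 1.41) with limma's unadjusted p at 1.9e-05. Its 2 other probe sets changed by -0.14 and 0.02, and the mean of its probe sets by 0.32. An orphan immunoglobulin kappa variable segment, which can share sequence with others of its family, was at 2.94 and 3.13 against 2.24 and 2.09 (change -0.87). The zinc-finger gene ZNF23 was at 3.45 and 3.17 against 4.14 and 4.27 (change 0.90), and PPP1R17, a phosphatase inhibitor subunit, at 3.42 and 3.20 against 2.62 and 2.53 (change -0.73). The groups of all 4 genes were separate, as they were for IGF1R, the fifth. None was called under any of the alternatives tried. With a trend of variance on intensity and a robust prior, limma called 1 gene, PLAC8, at an adjusted p of 0.0228. PLAC8 was at 2.3 and 2.0 in mock cells and 3.09 and 2.77 with inhibitor, a change of 0.78 (0.46 to 1.10 in the fit without the trend, where its adjusted p was 0.47).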

How the data were processed

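The values were the log2 probe-set intensities that the authors deposited. RMA and limma are named per the submitters' processing notes, without versions, and the rest of the upstream processing is not given in the sources used here. RMA subtracts background and normalizes between arrays, so a shift common to all genes is lost. Of 54675 probe sets, 41097 named 1 gene, 1801 several and 11777 none in the platform annotation. Of the probe sets that named 1 gene, 41043 were matched to current RefSeq names. The test was limma 3.58.1 (R 4.3.3) on 6 group means over 12 arrays (6 residual and 5.22 prior degrees of freedom), with Benjamini-Hochberg adjustment over 19775 genes and 95% intervals from the moderated fit. The number of arrays limits the precision; the median standard error was 0.164.

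Genes were named by rule: the Notch, gamma-secretase and Notch-linked B-cell lists and MYC; the 10 most higher and 10 most lower expressed genes with separate groups; the 5 smallest p-values; and, in each other list, up to 4 members with the highest mean and the one with the largest change. The 39 lists held 731 genes, of which 674 were measured. Members and lists were chosen with earlier results of these data known. The script was tested on simulated data. Alternatives covered probe-set choice, floor, scaling, prior, arrays used, array weights, a replicate block and leaving out each array. Of the same-numbered arrays' deviations, the correlation was 0.0457 in Mino.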

Additional observations from a re-analysis of the deposited data

How the results depend on the processing

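No gene was called under any setting tried except 1 (PLAC8) with an intensity trend and robust prior. With genes under the level of 4 left out before testing, 340 had an unadjusted p under 0.05, of 7297 tested. With every probe set tested on its own, 2725 of 54675 did, and 12264 (98.4%) and 9205 (73.9%) of 12458 expressed probe sets were held within 2-fold and 1.5-fold; list medians were not recomputed there. Leaving out 1 array called 0 genes in every case, and without Mino mock replicate 1 the share held within 1.5-fold was 53.3%, against 76.0% with all arrays. There the remaining array of the group is assumed to vary like the others. Leaving out both Rec-1 inhibitor arrays, which differed most from each other, was chosen after seeing the data and gave 83.2%. The labels do not say whether same-numbered arrays were paired. With a replicate block 0 genes were called, 1069 had an unadjusted p under 0.05 in limma's test and 5727 expressed genes were held within 1.5-fold. Counting genes from a level of 3 or of 5 as expressed gave 69.3% and 83.9% within 1.5-fold. None of the 1462 recomputed changes of named genes had an adjusted p under 0.05 in limma's test, as in the main fit. Their sign and size did move: HES5 changed sign in 4 of 20 alternatives, and STRN ranged from -0.01 to 0.81. Of the recomputed list medians 105 moved beyond their replicate spread and 711 did not; the cause was not tested.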
